A study of Schmidtea mediterranea with 96 samples.

Results

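Small regenerating fragments of the planarian *Schmidtea mediterranea* were compared at 10 days and at 7 days after amputation, across every transcript of the regeneration time course. The comparison rests on 8 of the series' 96 libraries, chosen by their labels: 4 libraries of fragments collected at 10 days (replicates 1, 2, 3 and 5) and 4 collected at 7 days (replicates 1, 3, 4 and 5). They belong to a time course of 68 libraries, 4 at each of 17 times between the cut (0 hr) and 14 days. The series also holds live-sorted X1, X2 and Xins cells, cells sorted by the protein PIWI-1, and whole animals untreated or 24 hours after 10000 rads, which serve below as sources of transcript lists. All fragments were wild type, starved for 7 days or more, and profiled as polyA RNA. The tissue label reads whole animals, whereas the treatment protocol describes fragments taken from one side of the worm. An asexual strain (CIW4) and a sexual strain (S2F8) were kept, without a statement of which gave these libraries. The labels do not say how many fragments went into a library or whether libraries came from separate cultures, so each p-value reflects only how far these libraries spread, which may be technical.

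Planarians replace missing parts from dividing stem cells called neoblasts, whose progeny leave the cell cycle and mature into the tissues of the worm. A bud of new tissue, the blastema, forms first, and missing structures then differentiate while the old tissue is reshaped to the smaller body. X1 cells are mostly cycling neoblasts, X2 cells are a mixture of smaller neoblasts and recent progeny, and Xins cells are insensitive to irradiation and mostly differentiated. PIWI-1, a protein of neoblasts, persists for a time in their progeny and is lost in mature cells.

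The 10 day libraries held 18.4, 15.1, 15.0 and 14.1 M reads (M stands for 1e6), and the 7 day libraries held 9.93, 17.0, 15.1 and 17.7 M reads, as recovered from the deposited FPKM values (reads scaled by transcript length and by the total of the library). One abundant transcript took 13.6% to 16.4% of the FPKM of a library at 10 days and 14.5% to 17.3% at 7 days. Compared only among themselves, each of the 8 libraries correlated best with another library of its own time. Libraries of the other times did not enter this comparison. The files give transcript identifiers without gene names, so the tissue could not be checked against named markers, and at most 2 transcripts are named in each direction of a comparison.

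At 10 days, 109 transcripts were higher and 23 lower than at 7 days, of 24546 tested (limma on log2(FPKM + 1), with calls at a Benjamini-Hochberg adjusted p under 0.05 and a change of 1 or more on the log2 scale). These 132 calls are 0.538% of the transcripts tested, with 0.444% called higher and 0.0937% called lower. Over all tested transcripts the difference had a median of 0.03 on the log2 scale and a median standard error of 0.15. The higher transcripts were of low to moderate level, with a median of 15.3 FPKM at 10 days and 3.68 FPKM at 7 days. The lower transcripts were abundant, with a median of 25.9 FPKM at 10 days and 167 FPKM at 7 days. When only the 8 libraries themselves were fitted, in place of all 68 of the time course, 54 were higher and 22 lower. The count also depended on single libraries: 47 higher and 22 lower without 7 day replicate 3, and 58 higher and 22 lower without 10 day replicate 3.

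**Figure D1:**
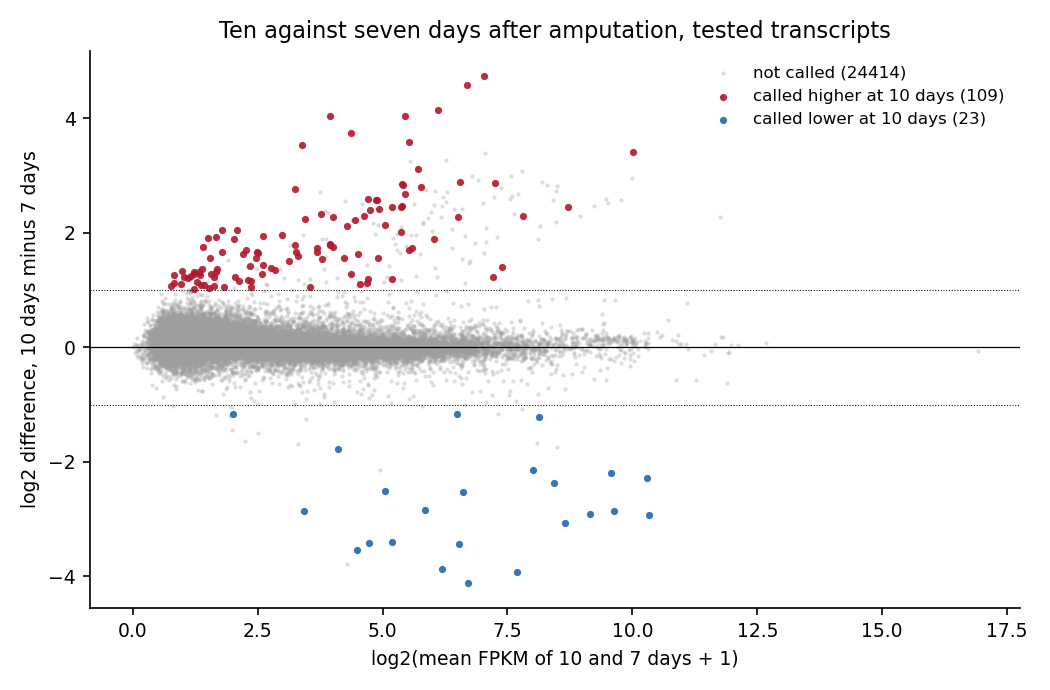
Each point is 1 tested transcript, with log2 of its mean FPKM over both times plus 1 on the horizontal axis and the log2 difference, 10 days minus 7 days, on the vertical axis; dotted lines mark a difference of 1 in either direction. The 109 transcripts called higher spread over low and high levels, the 23 called lower lie mostly at high levels, and 112 grey points above the upper line passed it without being called.

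The 109 higher transcripts rose by 1.02 to 4.74 on the log2 scale, with a median of 1.67, and 38 of them by at least 2. For 95 of the 109, every 10 day library lay above every 7 day library, an arrangement found for 5.31% of all tested transcripts. At 10 days 11 of them reached 100 FPKM, and 32 stayed under 5 FPKM. Together they made up 0.656%, 0.972%, 1.12% and 0.540% of the FPKM in the 4 libraries at 10 days, against 0.277%, 0.0406%, 0.251% and 0.155% at 7 days. That these shares do not overlap restates how the transcripts were picked, and 7 day replicate 3 stands lowest. That library was the lowest of its time for 96 of the 109 transcripts, and 7 day replicate 1 was the highest for 80. At 10 days replicate 3 was the highest for 74 and replicate 5 the lowest for 74.

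The log2 differences of the 23 lower transcripts ran from -1.16 to -4.11, with a median of -2.86, and 19 of them fell by at least 2. For 22 of the 23, every 10 day library lay below every 7 day library, which was so for 2.99% of all tested transcripts. At 7 days 16 of them had a mean of at least 100 FPKM. Their summed share of FPKM was 0.125%, 0.212%, 0.199% and 0.591% in the libraries at 10 days, against 1.79%, 1.42%, 1.5% and 1.05% at 7 days. That these shares do not overlap again restates how the transcripts were picked. The library with the highest share at 10 days, replicate 5, was the highest of its time for 21 of the 23. In bulk samples, fewer cells of a type and less RNA per cell cannot be told apart, which holds for every difference given here.

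The largest rise was that of SMED30032042, a transcript of 396 bases. It had 74.4, 334, 377 and 202 FPKM at 10 days, against 34.9, 0.297, 8.02 and 8.14 FPKM at 7 days. All 4 libraries at 10 days lie above those at 7 days, as was required of a named transcript. At 7 days 1 library was near 0, with 2 reads. The log2 difference was 4.74 ± 0.90 (SE, n = 4 each; limma adjusted p = 0.000709), and it was 3.87 without 7 day replicate 3. This SE, like the others here, uses the spread of all 68 libraries. The limma adjusted p of SMED30032042 was 0.0396 when only the 8 libraries were fitted, and 6.99e-12 without the libraries of 5 and 6 days. SMED30022805, of 493 bases, had 50.3, 262, 308 and 152 FPKM at 10 days, against 32.9, 0.119, 6.71 and 5.73 FPKM at 7 days. Its libraries at 10 days stand in the same order, again above all at 7 days, with a difference of 4.58 ± 0.86 (SE, n = 4 each; limma adjusted p = 0.00062), and its adjusted p was 0.05001, just outside the threshold, when only the 8 libraries were fitted. Over the 60 time-course libraries not at 10 or 7 days, these transcripts correlated with each other at r = 0.998, so whether they are near-identical copies that share reads was not tested.

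Both transcripts were near 0 until the 4th day and then uneven. SMED30032042 had 0 reads in all 4 libraries at 4 days. It had 83.4, 0.738, 92.2 and 0 FPKM at 5 days, and 220, 0.13, 13.1 and 1.11 FPKM at 6 days. Libraries at 5 and at 6 days thus ran from at or near 0 FPKM to levels within the range seen at 10 days, whereas at 14 days the values were 397, 317, 380 and 291 FPKM, close together and high. SMED30022805 had 296, 225, 297 and 204 FPKM at 14 days. Among sorted cells, SMED30032042 averaged 5.62 ± 2.00 FPKM in X1 cells and 598 ± 85.9 FPKM in Xins cells (SD, n = 3 each), and SMED30022805 averaged 2.61 ± 0.56 FPKM in X1 cells and 328 ± 75.7 FPKM in Xins cells. In untreated whole animals SMED30032042 averaged 534 FPKM and SMED30022805 276 FPKM, in a table that was normalized separately.

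The largest fall was that of SMED30011307, of 304 bases. It had 3.75, 11.5, 4.16 and 25.5 FPKM at 10 days, against 234, 122, 354 and 69.0 FPKM at 7 days. The groups do not overlap, as the choice of named transcripts required. The difference was -4.11 ± 0.56 (SE, n = 4 each; limma adjusted p = 1.98e-06), with a limma adjusted p of 0.0215 when only the 8 libraries were fitted. SMED30007501, of 874 bases, had 11.2, 16.5, 20.7 and 66.2 FPKM at 10 days, against 630, 227, 352 and 329 FPKM at 7 days. Its highest library at 10 days is again replicate 5, still below all libraries at 7 days, and the difference was -3.93 ± 0.52 (SE, n = 4 each; limma adjusted p = 9.17e-07). With only the 8 libraries fitted, its limma adjusted p was 0.0111. SMED30007501 had averaged 4087 FPKM at 0 hr and 7480 FPKM at 6 hr, and stood at 4.75 FPKM at 14 days. SMED30011307 averaged 966 FPKM at 0 hr, 1200 FPKM at 4 days and 4.07 FPKM at 14 days. In the sorted cells SMED30007501 averaged 10.1 ± 4.01 FPKM in X1 cells, 80.2 ± 36.6 FPKM in X2 cells and 47.5 ± 26.0 FPKM in Xins cells (SD, n = 3 each).

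**Figure D2:**
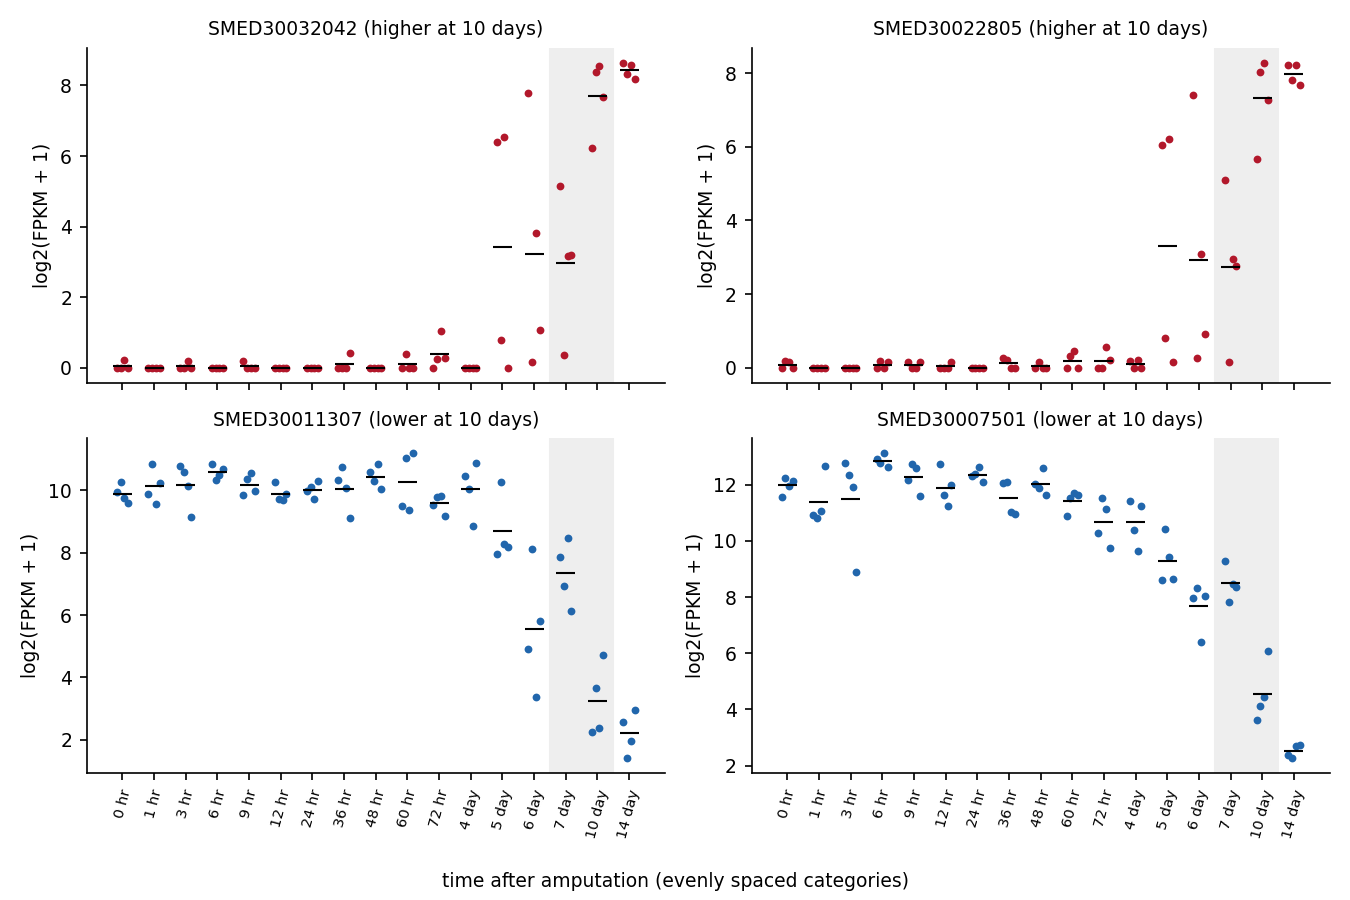
Values of the 4 named transcripts as log2(FPKM + 1) in each of the 68 time-course libraries (points) with the mean of each time (bars), over 17 evenly spaced times; 7 and 10 days are shaded. The 2 upper transcripts stay near 0 until 4 days, scatter from 5 to 7 days and are high at 10 and 14 days, and the 2 lower ones are high until 4 days, SMED30007501 already lower at 72 hr than at 24 hr, and lowest at 14 days.

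The transcripts called between 10 and 7 days were then read at other times. The libraries of those times gave no difference to the call, but their spread entered the fit that made it. At 14 days against 6 days, which share no library with 10 and 7 days, 224 transcripts were higher (0.913% of those tested) and 87 lower (0.354%). Of the 109 higher transcripts, 97 were called higher there and 0 lower, all 109 had a positive difference, and their median was 1.73. Of the 23 lower transcripts, 22 were called lower, all 23 had a negative difference, and their median was -2.99. The median of all tested transcripts was 0.00. When the calls were made from the 8 libraries of 10 and 7 days alone, a choice added after seeing the data, 37 of 54 higher transcripts were called higher at 14 than at 6 days, with 54 positive, and 17 of 22 lower ones were called lower, with 21 negative. The shared calls are 43.3% of the transcripts higher at 14 than at 6 days and 25.3% of those lower. Most of the other 14 against 6 day calls leaned the same way at 10 against 7 days, with positive differences in 123 of 127 (median 0.93) and negative ones in 58 of 65 (median -0.54). Across the 24546 transcripts the 2 comparisons, whose libraries differ but whose spread was estimated in 1 fit, correlated at r = 0.73 and rho = 0.48, given as a description since transcripts are not independent.

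An earlier step, 6 days against 4 days, also compares other libraries. It had 272 transcripts higher (1.11%) and 74 lower (0.301%). Of the 109, 50 were higher at 6 than at 4 days, 0 were lower and 106 had a positive difference, with a median of 1.18. Of the 23, 20 were lower and all 23 had a negative difference, with a median of -2.14. Between neighbouring late times, the calls were 23 higher and 28 lower at 4 days against 72 hours, 62 and 5 at 5 against 4 days, 7 and 6 at 6 against 5 days, 3 and 1 at 7 against 6 days, 109 and 23 at 10 against 7 days, and 4 and 14 at 14 against 10 days. These steps differ in length and share libraries with their neighbours.

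The course of both groups is summarised by a score per library: the median over the group of each transcript's log2(FPKM + 1), centred on its mean over all libraries, minus the same median over all tested transcripts. For the 109, the mean score was -0.14 at 0 hr, -0.77 at 4 days, -0.09 at 5 days, 0.23 at 6 days, 0.14 at 7 days, 1.84 at 10 days and 2.19 at 14 days. The libraries within a time were far apart in the middle of this course, with scores of -0.88 to 0.74 at 5 days, -0.25 to 0.91 at 6 days and -0.62 to 0.75 at 7 days. At 10 days the lowest score was 1.42. For the 23, the mean score was 0.93 at 0 hr, 1.75 at 6 hr, 0.69 at 4 days, -0.32 at 5 days, -1.86 at 6 days, -0.84 at 7 days, -3.70 at 10 days and -5.29 at 14 days. Their score at 7 days lay above that at 6 days, though the ranges overlap, at -1.48 to -0.39 against -2.93 to -0.79. Libraries were also far apart for the 23 at earlier times, from -0.42 to 1.83 at 3 hr and from -0.23 to 1.41 at 4 days.

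**Figure D3:**
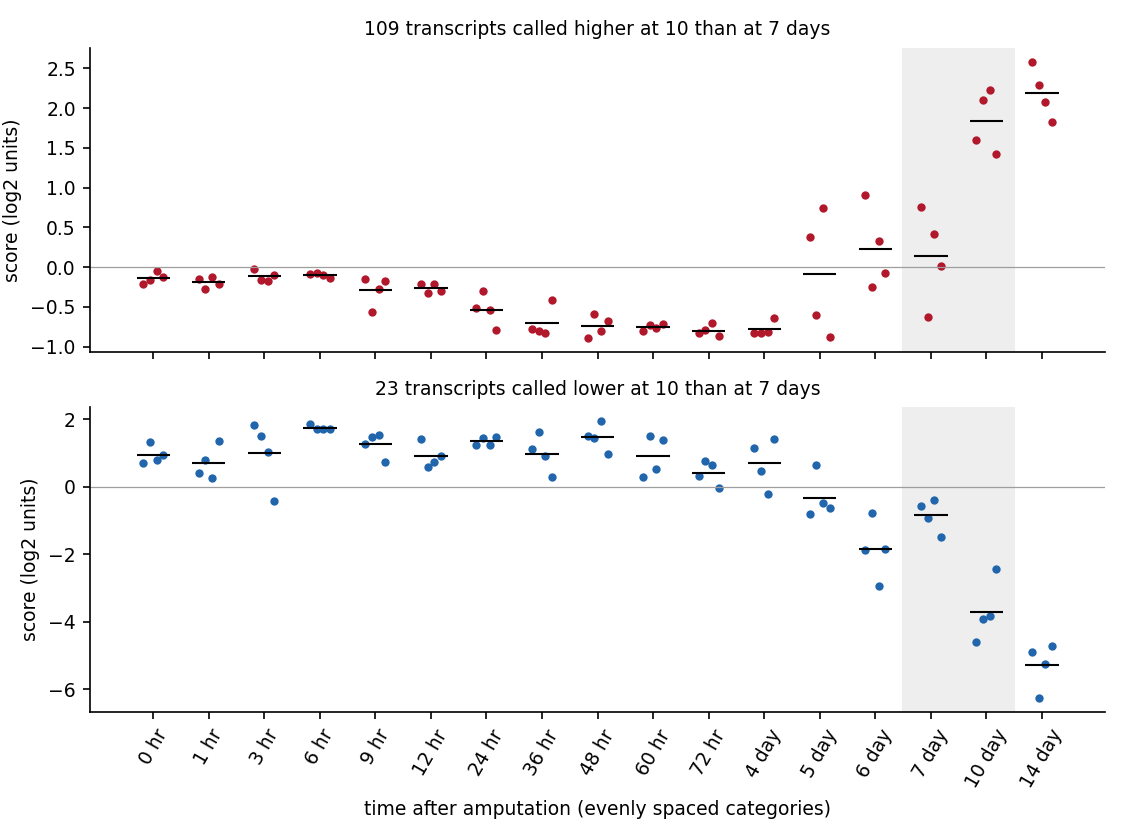
Score (log2 units) of the 109 transcripts called higher (upper panel) and the 23 called lower (lower panel) at 10 than at 7 days, in each of 68 libraries (points) with the mean of each time (bars); 7 and 10 days are shaded, and the difference between them chose the transcripts, with the spread of all 68 libraries. The higher set is below 0 until 4 days, spread out from 5 to 7 days and above 1.4 in every library at 10 and 14 days. The lower set has means above 0 until 4 days, with single libraries below 0 at 3 hr, 72 hr and 4 days, and is lowest at 14 days.

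The 109 higher transcripts fell into 3 kinds by their level in the fragments at the time of the cut. In 70 of them the mean at 0 hr lay below both 10 and 7 days. These had a median of 0.0719 FPKM at 0 hr, 0.147 at 4 days, 2.68 at 5 days, 2.36 at 7 days and 12.4 at 10 days, so they were almost unseen in the freshly cut pieces. Another 27 stood between 10 and 7 days at 0 hr, with medians of 13.2 FPKM at 0 hr, 0.390 at 72 hr, 5.39 at 7 days, 24.7 at 10 days and 31.3 at 14 days. The other 12 were above both, with medians of 62.6 FPKM at 0 hr, 3.88 at 5 days, 10.0 at 7 days, 39.4 at 10 days and 50.8 at 14 days. By the split itself, members of these last 2 kinds had a lower mean at 7 days than at 0 hr and at 10 days, so that dip restates the grouping. Their medians at 72 hr or 5 days, times the split did not use, were lower still than at 7 days. Of the 59 transcripts under 1 FPKM at 0 hr, 58 had at least 1 FPKM in untreated whole animals, beside 79.8% of all tested transcripts. At 14 days 0 of the 109 were under 1 FPKM, against 76 at 4 days. The highest mean of the 17 times was at 14 days for 87, at 10 days for 10 and at 0 hr for 10. Shares over all tested transcripts are not given for these counts by time, so they only describe the 109.

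The 23 lower transcripts were among the abundant messages of the cut fragment. Their median was 582 FPKM at 0 hr, 806 at 6 hr, 677 at 4 days, 359 at 5 days, 91.8 at 6 days, 167 at 7 days, 25.9 at 10 days and 7.57 at 14 days. At 14 days 2 of them had at least 100 FPKM, against 20 at 0 hr, where 10 had at least 1000. The lowest mean of the time course was at 14 days for 22 of the 23, and at 0 hr 21 stood above both 10 and 7 days. These counts have no share over all tested transcripts beside them and only describe the 23. Their median in untreated whole animals was 64.9 FPKM, in the table normalized separately.

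Over the 60 libraries of the time course at other times, the median correlation between pairs of the 23 was 0.90 (253 pairs), with 51.8% of pairs above 0.9. For the 109 the median was 0.70 (5886 pairs), with 17.4% of pairs above 0.9. Over all tested transcripts the median was 0.15, with 0.130% of pairs above 0.9. The members were called partly on their spread in these same libraries, so the values are a description. These correlations share the libraries and their time order, and near-identical copies could not be set apart. Both sets were short, with a median of 687 bases for the 109 and 569 for the 23, against 1015 for all tested transcripts.

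Sorted cells came from other libraries than the time course. Many of the 109 were low in them: 28 (25.7%) reached 1 FPKM in X1 cells and 62 (56.9%) in Xins cells, against 107 (98.2%) in untreated whole animals. Among all transcripts tested in the time course, these shares were 44.0% in X1 cells, 61.7% in Xins cells and 79.8% in untreated whole animals. A transcript was tested in the sorted cells if it reached 1 FPKM in at least 3 of the X libraries or 4 of the PIWI-1 libraries. One that passed only through the fraction where it is high thus had to differ, and counts over the tested members are a description. Of the 109, 65 could be tested in X1 against Xins cells, and 44 were lower in X1 and 1 higher, beside 39.9% lower and 8.41% higher among all transcripts tested there. Their median X1 minus Xins difference was -1.69, against -0.68 for all. In PIWI-1 high against PIWI-1 negative cells, 40 of 61 were lower and 1 higher, beside 27.6% lower and 19.7% higher among all tested there, with a median of -1.76 against -0.17 for all. Of the 23, 20 of 21 tested were lower in X1 than in Xins cells (median -2.04), and 20 of 21 lower in PIWI-1 high than in PIWI-1 negative cells (median -3.54). In a reading added after seeing the data, only transcripts that passed the minimum through the X1 libraries alone were kept. Of these, 15 of 24 of the higher set (62.5%) and 16 of 16 of the lower set were lower in X1 than in Xins cells, beside 24.3% of all such transcripts, with medians of -1.34 and -2.01 against -0.19. Among those that passed through the PIWI-1 high libraries alone, 11 of 19 (57.9%) and 13 of 14 (92.9%) were lower in PIWI-1 high than in PIWI-1 negative cells, beside 10.3% of all such transcripts, with medians of -1.74 and -3.78 against 0.43. In X2 against Xins cells, 9 of 65 were higher and 27 lower for the 109 (median -0.33), and 2 of 21 higher and 6 lower for the 23 (median 0.53), beside 1.69% higher and 18.2% lower among all (median -0.27), so the median and the calls of the 23 differ in sign. In PIWI-1 low against PIWI-1 negative cells, 4 of 61 were higher and 17 lower for the 109 (median -0.48), and 0 of 21 higher and 6 lower for the 23 (median -0.43), beside 13.8% higher and 18.9% lower among all (median -0.06). After irradiation limma called 0 of 108 and 0 of 22 tested members in either direction, with median differences of 0.05 and 0.13 from untreated animals, where 0.168% of all tested were called higher and 1.74% lower. At an unadjusted p under 0.05 there were 33 higher (30.6%) and 12 lower (11.1%) among the 108, and 2 higher (9.09%) and 0 lower among the 22, beside 18.4% higher and 24.5% lower among all.

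**Figure D4:**
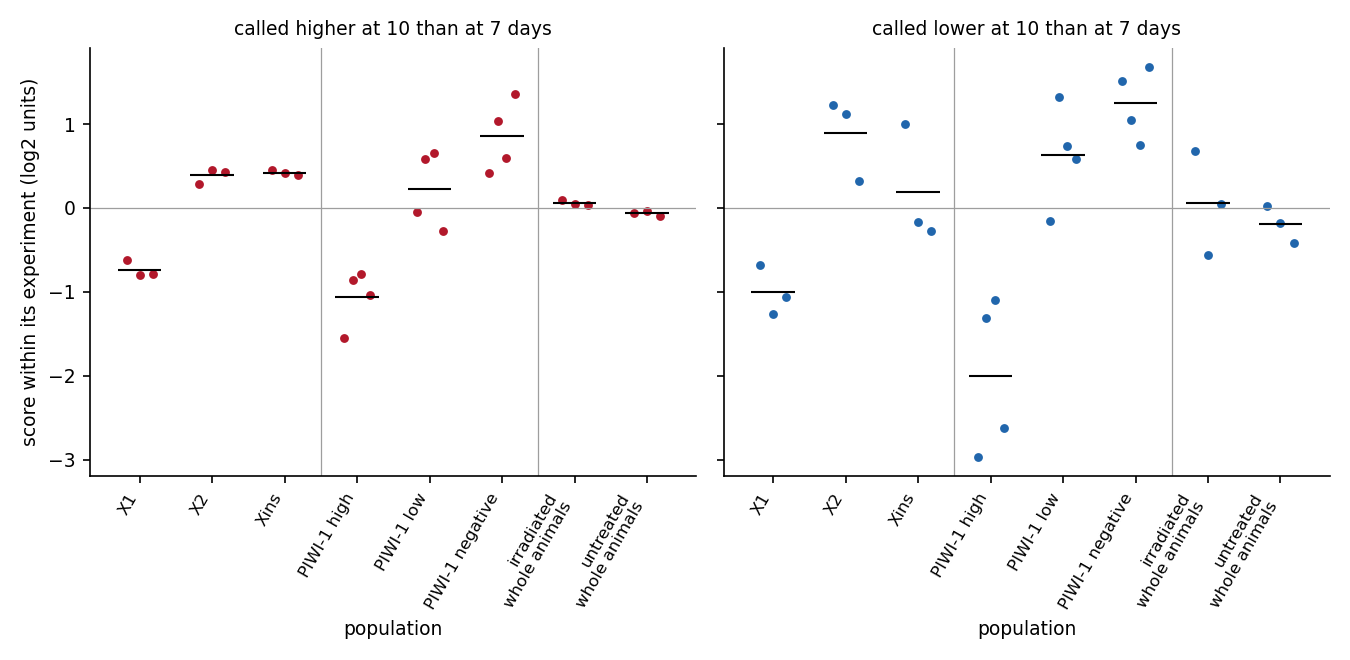
Score (log2 units, centred within each of 3 experiments separated by vertical lines) of the transcripts called higher (left panel) and lower (right panel) at 10 than at 7 days, in each sorted or whole-animal library (points) with group means (bars). The scores cover only tested members: 65 higher and 21 lower in X cells, 61 and 21 in PIWI-1 sorts, and 108 and 22 in whole animals. Both sets have their lowest means in X1 and PIWI-1 high cells, to which members tested only through a fraction where they are high contribute. Whole animals lie near 0 for the higher set, and for the lower set they spread from -0.56 to 0.68 in irradiated and from -0.42 to 0.03 in untreated animals.

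Transcript lists taken from comparisons of other libraries were followed into the 10 against 7 day comparison. The lists from the time course itself were called in the same fit of 68 libraries, so the spread at 10 and 7 days entered those calls. Beside them stand 0.444% higher, 0.0937% lower and a median of 0.03 for all transcripts, of which 58.6% had a positive difference. The neoblast lists had medians near that of all transcripts and smaller shares of positive differences. The X1 list (higher in X1 than in X2 and Xins, 4.62% of transcripts tested there) had 1 of 655 measured members higher and 0 lower, with a median of 0.01 and 53.1% positive. The PIWI-1 high list (2.37%) had 0 of 358 in either direction, a median of -0.01 and 46.6% positive. The irradiation-lowered list (1.74%) had 0 of 341, a median of -0.01 and 47.2% positive. The irradiation-raised list (0.168%) had 0 of 32 and a median of 0.10. For these lists with 0 calls by limma, voom on recovered reads also called 0, and an unadjusted p under 0.05 was reached by 14 higher (3.91%) and 11 lower (3.07%) of the PIWI-1 high list, 35 (10.3%) and 30 (8.80%) of the irradiation-lowered list, and 0 and 0 of the irradiation-raised list. Among all tested transcripts these shares were 7.43% higher and 4.82% lower. With no minimum difference, limma called 9 higher and 6 lower of the 341 in the irradiation-lowered list. The counts were then 3 and 0 of the PIWI-1 high list, 7 and 3 of the X1 list, and 262 and 173 of all 24546.

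The lists of differentiated cells were large and had medians close to that of all transcripts. The Xins list (17.5%) had 26 of 2664 higher (0.976%) and 6 lower (0.225%), with a median of 0.03 and, at an unadjusted p under 0.05, 11.5% higher and 6.72% lower, beside 7.43% and 4.82% of all. Its count of higher members was 13 without 7 day replicate 3, 31 without 7 day replicate 1 and 11 when only the 8 libraries were fitted. The PIWI-1 negative list (18.1%) had 16 of 2846 higher (0.562%) and 6 lower (0.211%), with a median of 0.04. Its higher count was 6 without 7 day replicate 3, 8 without 10 day replicate 3 and 19 without 7 day replicate 1. Of the 70 higher transcripts whose 0 hr mean lay below both 10 and 7 days, 42 were tested in the X sorts and 25 of these belong to the Xins list. Of all 65 higher transcripts tested there 26 do, beside 17.5% of all transcripts tested. The 70 had medians of 0.08 FPKM in X1 and 2.17 in Xins cells. Those tested only through Xins cells had to be higher there, so the count is a description. The PIWI-1 low list (1.13%) had 4 of 172 higher (2.33%) and 0 lower, with 76.2% of differences positive and a median of 0.14. Its higher count was 1 without 7 day replicate 3 or 5 or 10 day replicate 2 or 3, and 6 without 7 day replicate 1. The early wound list (higher at 1, 3 or 6 hr than at 0 hr, 0.758%) had 0 of 186 in either direction, a median of -0.10 and 26.9% positive. By voom its count was also 0, and at an unadjusted p under 0.05 there were 9 higher (4.84%) and 44 lower (23.7%), beside 7.43% and 4.82% of all. Transcripts higher at 6 days than at 0 hr (6.29%) had 34 of 1544 higher (2.202%) and 1 lower, with a median of -0.07 and 35.8% positive. The balance turned round with no minimum difference, at 52 higher and 60 lower, and at an unadjusted p under 0.05 there were 121 higher (7.84%) and 289 lower (18.7%). The count of 34 became 15 without 7 day replicate 3, 22 without 10 day replicate 3, 38 without 7 day replicate 1, and 8 when only the 8 libraries were fitted. Transcripts lower at 6 days than at 0 hr (1.7%) had 21 of 417 higher and 19 lower, with a median of 0.16 and 64.3% positive. That list thus holds 19 of the 23 lower transcripts as well as 21 of the 109 higher ones. Its lower count was 19 in each fit that left out 1 library other than 10 day replicate 5 (22), whereas its higher count was 4 without 7 day replicate 3, 5 without 10 day replicate 3, 7 without 10 day replicate 2 or 7 day replicate 5, and 13 without 10 day replicate 1. That higher count was 22 without 10 day replicate 5 and 26 without 7 day replicate 1 or 4.

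The X2 list (higher in X2 than in X1 and Xins, 1.06%) stood farthest from the background by its median, 0.47, with 77.6% of 161 members positive, 8 called higher (4.97%) and 2 lower. Its count of higher calls depended on the test and on single libraries. It was 46 by limma's voom on recovered reads, 18 when only the 8 libraries were fitted, 3 with a pseudocount of 0.1, 1 without 7 day replicate 3, 3 without 10 day replicate 2 or 3, 4 without 10 day replicate 1, 5 without 7 day replicate 5, 12 without 7 day replicate 1 and 14 without 7 day replicate 4. The 74 members with a difference of at least 1 were picked out after their values were seen and are described without a test. The median level of the 74 was 128, 151, 184 and 107 FPKM in the libraries at 10 days, against 57.6, 7.84, 59.4 and 35.7 FPKM at 7 days. The gap between these values restates how the 74 were picked, and 8 of them were called, their standard errors having a median of 0.86. At other times the median of these 74 was 150 FPKM at 0 hr, 2.10 at 4 days, 17.6 at 5 days, 34.5 at 6 days, 41.0 at 7 days, 137 at 10 days and 157 at 14 days. The median level of the 74 was 351 FPKM in untreated whole animals, 53.2 in X2 cells, 18.2 in Xins cells and 7.73 in X1 cells. Over the whole X2 list these medians were 208, 33.7, 12.9 and 6.01 FPKM. At 14 against 6 days, 46 of the 74 were called higher and all 74 were positive, with a median of 2.59. Over the whole X2 list, 104 of 161 were positive there, with a median of 0.53, and of the other 87 members 0 were called higher and 30 were positive, with a median of -0.18. Of all 112 transcripts that passed a difference of 1 upward without being called, 66 were of the X2 list.

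**Figure D5:**
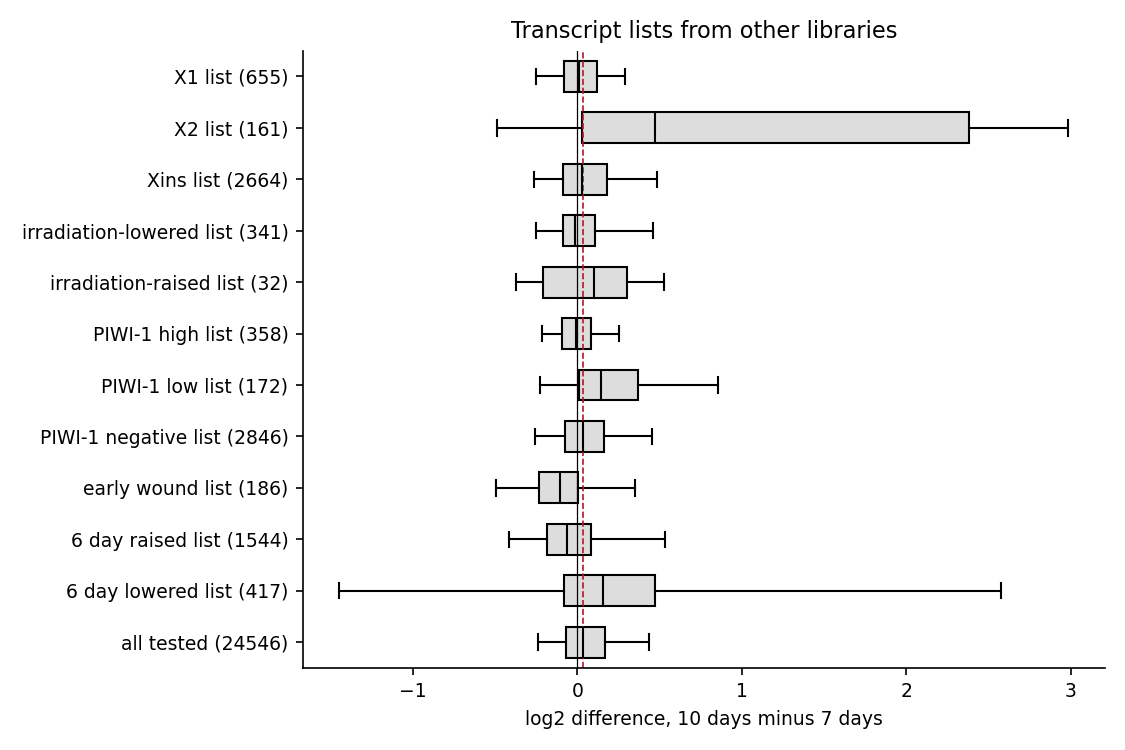
Spread of the log2 difference, 10 days minus 7 days, in 11 transcript lists from comparisons of other libraries and in all 24546 tested transcripts, with the number measured in brackets. Boxes span the middle 50% with a line at the median, whiskers run from the 5th to the 95th percentile, and the dashed line is the median of all. The X2 list reaches far to the right, with a median of 0.47, while the neoblast lists have medians close to that of all.

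The step from 7 to 10 days was set against the earlier step from 4 to 6 days in the same fit. The 2 steps differed for 80 transcripts (0.326% of those tested), of which 27 had a more positive and 53 a more negative change from 7 to 10 days. In the 27, the median change was 0.81 over the later step and -0.52 over the earlier one. In the 53 it was -0.10 over the later step and 1.08 over the earlier one, so the larger median change of these lay in the earlier step.

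SMED30030464 had 2.92, 6.54, 6.29 and 7.02 FPKM at 10 days, against 17.7, 14.9, 10.5 and 15.2 FPKM at 7 days, and its difference of -1.25 ± 0.65 did not pass the test (limma adjusted p = 0.44). It had fallen in the earlier step, by -4.62 ± 0.65 (limma adjusted p = 1.2e-06), with 8.18, 22.7, 8.64 and 8.74 FPKM at 6 days, against 537, 576, 23.1 and 995 FPKM at 4 days, where 1 library was already low. The steps differed by 3.37 ± 0.93 (SE; limma adjusted p = 0.0424), a call lost in 10 of 17 alternatives, with an adjusted p of 0.188 when only the libraries compared were fitted and 0.476 by voom. SMED30015039 had 7.94, 8.72, 14.04 and 3.90 FPKM at 10 days, against 2.77, 0.194, 2.40 and 0.932 FPKM at 7 days. It was called higher, by 1.94 ± 0.49 (SE, n = 4 each; limma adjusted p = 0.0195). Its difference from 4 to 6 days was -0.52 ± 0.49 and did not pass the test (limma adjusted p = 0.651), a step difference of 2.46 ± 0.69 (limma adjusted p = 0.0489). That call was lost in 11 of 17 alternatives, with an adjusted p of 0.33 by voom. Its mean was 41.0 FPKM at 0 hr, 0.961 at 72 hr and 18.7 at 14 days.

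SMED30022326 had 27.7, 25.3, 27.2 and 27.4 FPKM at 10 days, against 11.4, 17.2, 17.1 and 14.5 FPKM at 7 days, and its difference of 0.81 ± 0.20 stayed under the fold minimum (limma adjusted p = 0.0173). It had 4.62, 7.77, 10.9 and 16.4 FPKM at 6 days, against 0.375, 1.99, 1.22 and 0.689 FPKM at 4 days. Its libraries were thus farther apart in proportion at these times than at 10 days. The change from 4 to 6 days had been 2.34 ± 0.20, and the steps differed by -1.53 ± 0.29 (limma adjusted p = 0.000782), a call lost in 1 of 17 alternatives, with an adjusted p of 0.0737 when only the libraries compared were fitted. Its mean was 0.0331 FPKM at 0 hr and 28.9 FPKM at 14 days. SMED30009191 had 1.39, 4.02, 2.00 and 3.36 FPKM at 10 days, against 5.75, 7.28, 5.42 and 4.03 FPKM at 7 days. These groups almost touch, and the difference was -0.88 ± 0.24 (limma adjusted p = 0.0378). It was set against 0.45 ± 0.24 from 4 to 6 days, which did not pass the test (limma adjusted p = 0.328). The step difference was -1.33 ± 0.34 (limma adjusted p = 0.0258), a call lost in 5 of 17 alternatives, with an adjusted p of 0.172 when only the libraries compared were fitted.

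The number of transcripts detected was also set side by side. At 1 FPKM or more, 21325, 21858, 20809 and 20476 transcripts were seen in the libraries at 10 days, against 20335, 19721, 20462 and 20278 at 7 days, so that each library at 10 days stood above all at 7 days. The mean was 21117 ± 605 at 10 days and 20199 ± 328 at 7 days (SD, n = 4 each), a difference of 918 (exact two-sided permutation p = 0.0286, the smallest that 4 against 4 libraries can give, and 0.0857 adjusted over 3 such comparisons). After thinning the reads of all 8 libraries to the smallest total, 9.93 M reads, the difference was 897. Total reads (exact permutation p = 0.771) and the share of the most abundant transcript (15.0% at 10 days and 16.1% at 7 days, exact permutation p = 0.2) did not pass the test.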

How the data were processed

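Libraries of polyA RNA were made with TruSeq kits, per the labels' protocols. The authors deposited FPKM values for 36035 transcripts in 3 tables, with 1 column per library. The submitters' processing notes list Bowtie2 2.2.9 and edgeR but not what each did. The reference and counting method are not given in the sources used here, nor whether counting used strand, so antisense and overlapping transcripts are uncertain.

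The deposited FPKM values were turned back into reads for depth, thinning and 1 alternative test: 35231 transcripts received a length, and 100% of their values in the 8 libraries came out whole within 0.05 of a read. One read on 1 kb equals 0.0543 to 0.101 FPKM in these libraries. All other values use FPKM as deposited.

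Differences were tested with limma 3.58.1 in R 4.3.3 (a two-sided moderated test from lmFit and trended eBayes, Benjamini-Hochberg adjusted) on log2(FPKM + 1), which understates changes of low transcripts. All 68 time-course libraries entered 1 fit, with transcripts at 1 FPKM or more in at least 4 libraries. The fit was also run on simulated counts with 1 dispersion for all transcripts and equal means at all times other than 10 days. These data do not have that form, so the run does not show how the fit treats transcripts that scatter within a time. Calls needed an adjusted p under 0.05 together with a change of 1 or more in log2. Lists came from the same rule in comparisons of other libraries, in fits per experiment with a minimum of 1 FPKM in 3 (X cells, whole animals) or 4 libraries. For lists from the time course this was the fit of all 68 libraries. In each comparison the 2 largest changes per direction are named, among calls with a mean of 5 FPKM or more at 10 or 7 days and no overlap between those libraries. The comparison and lists were chosen with earlier results of these data known. Alternatives were the pseudocount, filter, scaling, libraries fitted, trend, replicate block, limma's voom on recovered reads, fold minimum and each library left out. One library that the labels place in no group was not used.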

Additional observations from a re-analysis of the deposited data

Results flagged for a closer look

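The change from 7 to 10 days differed from that from 4 to 6 days for 80 transcripts, by a test of the difference itself in limma (adjusted p under 0.05 and a difference of at least 1). The named ones differed by 3.37 (SMED30030464), 2.46 (SMED30015039), -1.53 (SMED30022326) and -1.33 (SMED30009191) on the log2 scale. SMED30030464 had negative differences in both steps, with the larger one from 4 to 6 days, where 1 of 4 libraries at 4 days was already low. SMED30015039 changed more upward in the later step, SMED30022326 was higher at the end of both steps with the larger change in the earlier one, and SMED30009191 had opposite signs in the 2 steps. From 4 to 6 days, neither SMED30015039 nor SMED30009191 passed the test (limma adjusted p = 0.651 and 0.328), so a reversal of direction is not shown. Among 24 groups of 4 libraries checked for a value far from the other members, 0 held one, where chance alone gives about 1 in 20. With only 4 values in a group, such a check can miss a far value. Its outcome also depends on the scale of the values, which is not recorded for it. The count of 0 therefore does not clear single libraries, such as the low one of SMED30030464 at 4 days.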

How the results depend on the processing

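The number of transcripts called at 10 against 7 days, 132, moved to 76 when only the 8 libraries were fitted (49 shared with the 132), to 242 with voom on recovered reads (123 shared), and to 435 (262 higher and 173 lower) with no minimum difference. Leaving out 1 library gave 69 (without 7 day replicate 3) to 152 (without 7 day replicate 1), with 80 without 10 day replicate 3. With a pseudocount of 0.1, 74 were higher and 28 lower. Without the libraries of 5 and 6 days 141 were called, and 90 without 7 day replicate 3 and 10 day replicate 5 together, 2 alternatives chosen after seeing the data. At 14 against 6 days, 311 (224 higher and 87 lower) became 606 with voom and 3297 with no minimum, where the balance turned round, at 1214 higher and 2083 lower, and 272 to 336 with 1 library left out. The step difference, 80 (27 more positive and 53 more negative), became 126 (14 and 112) with voom, 412 (47 and 365) with no minimum, and 54 to 86 with 1 library left out. Apart from a replicate block within 3 pairs, given next, other settings kept these 3 counts within 1.5 times.

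No pairing by replicate number was seen: same-numbered libraries at 10 and 7 days deviated with r of -0.07, -0.03 and -0.07, and those of unlike numbers with r from -0.18 to 0.23. Whether a number stands for a shared culture was not tested. A replicate block over all 68 libraries gave 146, 290 and 82 calls in the 3 comparisons. A block within numbers 1, 3 and 5 alone, with 3 pairs, gave 1 call. The 4 transcripts named at 10 against 7 days did not pass there, at adjusted p of 0.142 to 0.323, with differences of 4.58, 4.404, -3.87 and -3.79. The step difference was not run in this block.

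The difference in detected transcripts, 918, was 959.5 at 0.5 FPKM (exact permutation p = 0.0857) and 258.75 at 5 FPKM (exact permutation p = 0.0571). It was 671 to 1131.67 with 1 library left out, with an exact permutation p of 0.0571 without any one 7 day library, and 758.667 over the 3 pairs of the replicate block (exact permutation p = 0.25, the smallest possible).

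Of the transcripts named for the step difference, SMED30030464, SMED30015039 and SMED30009191 lost the call when single libraries were left out (adjusted p up to 0.0958, 0.149 and 0.0752). With voom the first 2 had an adjusted p of 0.476 and 0.33. When only the libraries compared were fitted, it was 0.188 for SMED30030464, 0.172 for SMED30009191 and 0.0737 for SMED30022326. No named transcript changed sign in any setting run. The medians of the X1, Xins, PIWI-1 high and both irradiation lists did in 1 or more settings, all lying between -0.02 and 0.01 there. Of the list counts, 59 settings moved a count by over 1.5 times and 161 did not. Depth limits values near 0, such as the 2 reads of SMED30032042 in 7 day replicate 3.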
